A study of Mus musculus with 8 samples.

Results

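Endoplasmic reticulum stress (ERS) is sensed by proteins that span the membrane of the endoplasmic reticulum. Described here are the genes for these sensors and their relatives, the amino acid sensor gene Eif2ak4 and the transcription factor gene Xbp1. The description rests on the H3K27ac regions at and around them. The 10 genes were chosen by name, with earlier results of these data known, among 55341 gene symbols of the GENCODE M21 annotation. They are Ern1, Xbp1, Eif2ak3, Eif2ak4, Atf6, Atf6b, Creb3, Creb3l1, Creb3l2 and Creb3l3. For each, the regions that held one of its transcription start sites (TSSs), the regions in its gene body and the regions within 50 kb of its TSSs were collected, 61 of 32196 regions lying within 50 kb. Mouse primary hepatocytes (MPH), isolated from adult male WT mice labelled C57Bl6 (C57BL/6J by the study's methods) and kept in serum-free medium, received thapsigargin at 1 µM or, as vehicle, DMSO at 0.04%, in both cases for 4 h. Thapsigargin blocks the calcium pump of the endoplasmic reticulum and so causes ERS. Chromatin with H3K27ac, the acetylation of histone H3 at lysine 27 that marks active promoters and enhancers, was sequenced in 3 libraries per treatment, beside 1 input library per treatment, which makes 8 libraries in all. The values below come from 3 region lists in mm10 coordinates, which sort regions into H3K27ac UP, H3K27ac DOWN and H3K27ac unchanged after thapsigargin against DMSO. Positions are all that they hold: reads, signal, fold changes and p-values are not part of them.

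A region therefore has a class and a width but no size of change, depth is unknown, and no value below carries an error between libraries. The classes come from the authors' own test over the replicates, in which a region that did not pass the FDR was listed as unchanged. That class therefore does not show that a region stayed the same. Regions that passed the FDR with a mixed direction of their bins were kept out of all 3 lists. A TSS with no listed region may lie in such a region or in none, which cannot be told apart here. Since no values per library were used, no comparison below has a test, and counts are set beside the same count over all genes or regions. The labelled cell type was checked first. The hepatocyte genes Alb, Apoa1, Ttr, Tat, Hnf4a, Cps1 and Krt18 had a TSS in a listed region in 7 of 7 cases, with 3 DOWN (Apoa1, Hnf4a and Krt18) and 4 unchanged. Of 10 marker genes of stellate, endothelial, immune and biliary cells, 2 had one (Stab2 and Cd68, both unchanged), and 8, Dcn, Lrat, Pecam1, Ptprc and Epcam among them, had none. Over all 55341 gene symbols, of all gene types, 12261 had a TSS in a listed region, and 8.91% of these had one in a DOWN region. The 2 of 10 lie close to that overall share, so a lack of regions is not particular to the marker genes of other cells.

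As background, 3 arms carry the unfolded protein response. IRE1 (Ern1) is a kinase and RNase that cuts Xbp1 mRNA, so that a strong transcription factor, XBP1s, is made. PERK (Eif2ak3) phosphorylates eIF2alpha, which slows translation in general and favours that of ATF4, and GCN2 (Eif2ak4) phosphorylates the same site when amino acids are short. ATF6 and its relatives, ATF6B and the CREB3 family, are membrane-bound transcription factors that are carried to the Golgi and cut there by the proteases S1P and S2P, which frees their DNA-binding part. CREB3L3, also called CREBH, is made mainly in liver and intestine and drives genes of lipid metabolism and the acute phase.

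The 3 canonical sensors and Xbp1 all had an H3K27ac UP region at a TSS. An UP region held a TSS of 6 of the 10 genes (Ern1, Xbp1, Eif2ak3, Atf6, Atf6b and Creb3l2), beside 21.4% of the 12261 genes with a TSS in any region. A DOWN region held a TSS of 2 genes, Creb3 and Creb3l3, beside 8.91% of the 12261 genes. Eif2ak4 had TSSs in an unchanged region. Creb3l1 had no TSS in any region and so, unlike the other members, is not among the 12261 genes. Since the members were chosen with earlier results known, these counts are no independent evidence of a direction. Of these calls, 3 depend on the definition of a TSS region. Atf6b had no region at a TSS in 3 of 6 alternative definitions (500 bp covered on each side, regions of at least 1 kb, or the 5′ end of the gene alone). Creb3l3 had none in 3 (coding transcripts, basic transcripts, or the 5′ end alone), which leaves 1 gene DOWN. Eif2ak4 had none in 2, with 500 bp covered on each side and with regions of at least 1 kb.

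**Figure D1:**
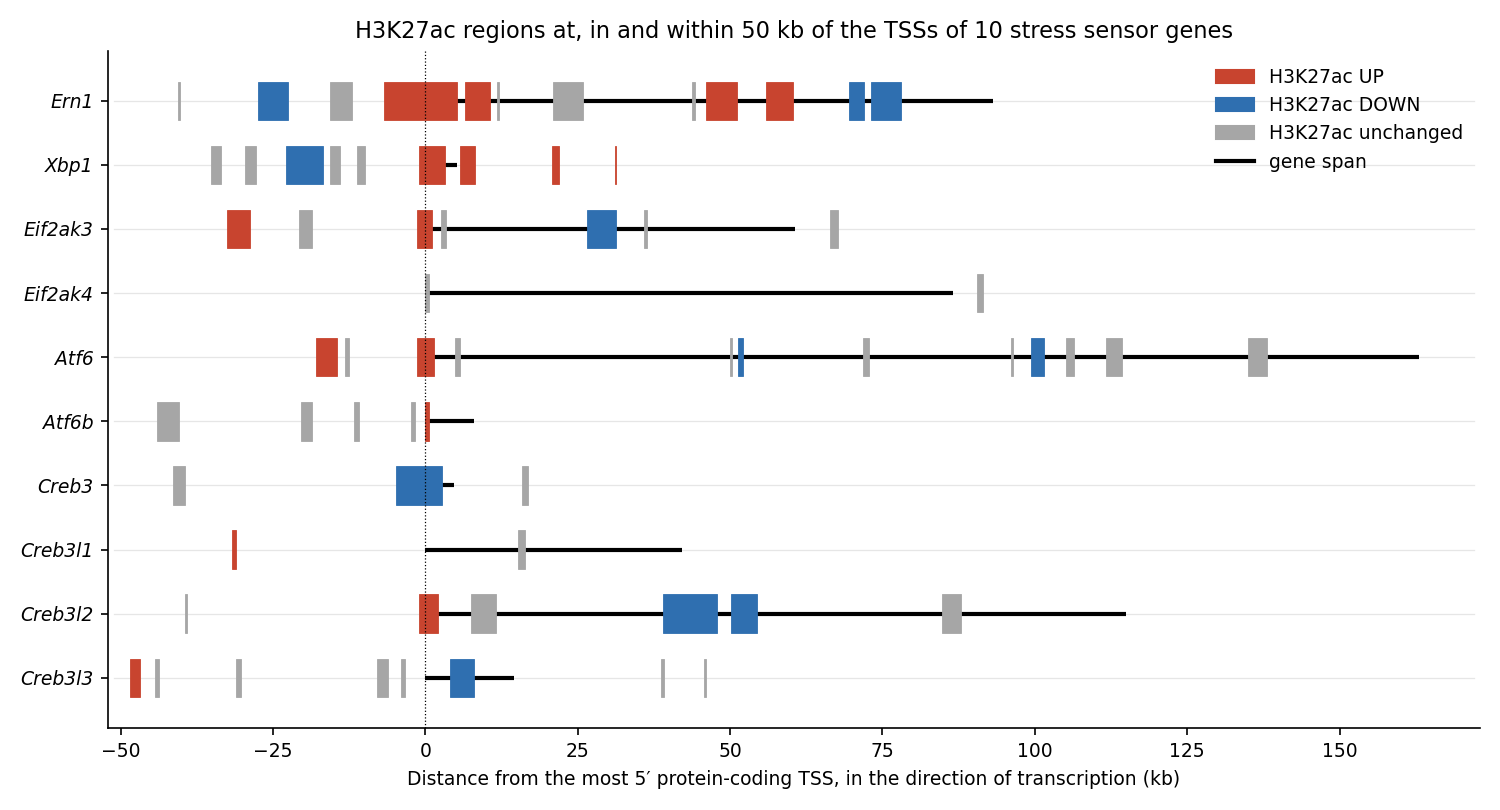
Regions at, in and within 50 kb of the TSSs of the 10 genes, plotted by distance in kb from the most 5′ protein-coding TSS (dotted line, negative values upstream). Boxes are H3K27ac regions to scale, coloured by class, and black lines are gene spans. UP regions lie at the TSS of 6 genes, and DOWN regions lie inside the 4 long genes Ern1, Eif2ak3, Atf6 and Creb3l2.

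Ern1, the IRE1 gene, spans 93203 bp on the minus strand of chromosome 11 (chr11:106394650-106487852). Its 5 annotated transcripts all start in an UP region of 11863 bp (chr11:106482710-106494572), which reached 6736 bp upstream and 5126 bp downstream of the most 5′ coding TSS, into intron 1. It was the widest TSS region of the 10 genes, and 97.9% of the 2047 UP regions with a TSS were narrower. Inside the gene, 3 more UP regions of 4018 bp, 5171 bp and 4518 bp lay in intron 1, across exon 3 and across exon 5. They began 6.6 kb, 46.0 kb and 55.9 kb from the TSS. Further along, a DOWN region of 2551 bp in intron 10 and one of 4804 bp over exons 11 to 13 followed at 69.5 kb and 73.2 kb. The 3 unchanged regions of the body lay among the UP regions, from 11.7 kb to 43.8 kb, and the DOWN regions lay beyond the last UP region. UP regions covered 20.2% of the span, DOWN regions 7.89% and unchanged regions 6.32%. The 18850 bp of UP region in the span were reached or passed by 0.40% of the 12261 genes. That rank is over genes of all lengths and was not adjusted for the long span of Ern1. Upstream, the nearest DOWN region was 4907 bp wide and 22.6 kb away.

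Within the UP region at the Ern1 TSSs lay 3 matches to TGATGNAA, the composite element that ATF4 and CHOP are known to bind. They are shown, in capitals with 20 bases on each side, since this region was the widest at any of these TSSs. None of them overlapped an exon of a coding Ern1 transcript. They lie at chr11:106485803-106485850 (plus strand), chr11:106489409-106489456 (plus strand) and chr11:106492836-106492883 (minus strand) of mm10:
Ern1 intron 1: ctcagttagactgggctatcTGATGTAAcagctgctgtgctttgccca
Ern1 near upstream: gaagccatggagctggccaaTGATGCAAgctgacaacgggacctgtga
Ern1 far upstream: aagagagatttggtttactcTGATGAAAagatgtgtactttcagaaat
The first match starts 2006 bp inside the gene, and the others end 1593 bp and 5020 bp before the TSS. The 3 matches in 11863 bp make 25.3 per 100 kb, beside 21.5 per 100 kb over all UP regions, and 35.6% of all UP regions held at least 1 match on either strand. A match also lay in the UP region at the Atf6 TSS, starting 702 bp after it, and in the DOWN region of Creb3l3.

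Xbp1, the substrate of IRE1, is a short gene of 5235 bp on the plus strand (chr11:5520659-5525893). All 4 transcripts start in an UP region of 4288 bp (chr11:5519660-5523947), from 999 bp upstream to 3288 bp downstream of the TSS, which covered exons 1 to 3 and 62.8% of the gene. Among UP regions with a TSS, 81.3% were narrower. There were 4 UP regions within 50 kb, the most of any of the 10 genes, although within 100 kb Ern1 had more, 6 against 4. Over all 12261 genes, 2.88% had at least 4 within 50 kb. The other 3 lay downstream: 2412 bp wide at 5.7 kb, just past the 3′ end of Xbp1, 1128 bp at 20.8 kb with the TSS of Ccdc117, and 218 bp at 31.1 kb. On the upstream side no UP region lay within 50 kb, and a DOWN region of 5983 bp ended 16.9 kb away, with the TSS of the non-coding gene Gm11963 in it. The other 4 regions, all unchanged, were also upstream. UP regions thus lay on the Xbp1 side and downstream, and DOWN and unchanged regions upstream.

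In the listed regions at, in or within 50 kb of the 10 genes, only Xbp1 had a match to the ER stress response element (ERSE). ATF6 and XBP1 are known to bind this element together with NF-Y. Sequence of the genes outside these regions was searched only in the promoter windows described below. The motif was searched as CCAAT and CCACG separated by any 9 bases. The site, printed with CCAAT and CCACG in capitals and 5 bases on each side, lies at chr11:5520901-5520929 (plus strand, mm10), in the part of exon 1 before the start codon:
Xbp1 ERSE: accggCCAATcgcggacggCCACGaccct
The motif itself runs from 247 bp to 265 bp after the annotated TSS, inside the UP region. Such a match was rare, found in 17 of 5508 UP regions (0.309%), in 5 of 3376 DOWN regions (0.148%) and in 18 of 23312 unchanged regions (0.0772%). UP regions are wider than unchanged ones, and per 100 kb the values were 0.140, 0.0459 and 0.0489 matches. Of the RefSeq promoter windows (GRCm38.p6, from 250 bases before to 50 bases after a gene's start, 32851 windows), 0.119% held one, and that of Xbp1 did not, since its window ends before the site.

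The stretch that IRE1 removes from Xbp1 mRNA lay outside the UP region. It was located with the forward primer for spliced Xbp1 mRNA, which matched the gene in 2 pieces, 26 bases apart. Repeated bases allowed 7 positions for the gap, of which 1 had the form CNGCNG at both cuts, the known signature of IRE1 sites. This stretch of exon 4 is shown in capitals, with 20 bases on each side (chr11:5524259-5524324, plus strand, mm10), to place the IRE1 target on the map of the gene:
Xbp1 IRE1 intron: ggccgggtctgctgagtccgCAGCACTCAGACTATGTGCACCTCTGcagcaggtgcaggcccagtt
It lay 331 bp past the end of the UP region and 2051 bp before the next one, so the RNA-level target and the acetylated regions did not overlap.

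The partners of this branch were mostly on the UP side, in a list chosen with earlier results of these data known. Over all 12261 genes with a TSS in any region, 21.4% were UP and 8.91% DOWN at a TSS. Of 9 genes that act with or on IRE1 and XBP1, UP regions held a TSS of 6, DOWN regions of 0 and unchanged regions of 2, and Ern2, the paralog of intestine and airway, had none. The UP genes were Tmbim6, an inhibitor of IRE1 at the membrane, with 12141 bp, Map3k5, the ASK1 kinase downstream of IRE1, with 7867 bp, and Dnajb9, a chaperone and XBP1s target, with 2554 bp. Zbtb8os, a cofactor of the ligase that rejoins Xbp1 mRNA, had 2059 bp. Ufl1 and Ddrgk1, of the UFM1 pathway, had UP regions of 858 bp and 598 bp. The ligase gene itself, Rtcb, and the adaptor gene Traf2 were in unchanged regions of 956 bp and 1029 bp, so the ligase and its cofactor differed in class.

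Eif2ak3, the PERK gene, spans 60731 bp (chr6:70844515-70905245, plus strand). Of its 5 transcripts, 3, both coding ones among them, start in an UP region of 2554 bp (chr6:70843126-70845679), with 1389 bp upstream and 1164 bp downstream of the TSS. That width was near the middle of its class, 59.4% of UP regions with a TSS being narrower. Another UP region, of 3792 bp, lay 28.7 kb upstream. In intron 2, 26.5 kb from the TSS, lay a DOWN region of 4750 bp, wider than both UP regions. Of the span, 1.92% was in UP regions and 7.82% in DOWN regions. PERK's gene thus paired a promoter of ordinary width on the UP side with a wider DOWN region in its body.

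The 250 bases before the Eif2ak3 start held CCAAT, the core of NF-Y sites, 6 times on either strand. Of the 32851 RefSeq windows, 26 (0.0791%) held as many, while 37.4% held at least 1. The stretch (RefSeq, GRCm38.p6, chr6:70844265-70844514, plus strand) lies inside the UP region and is shown for this array, with CCAAT or its reverse complement in capitals:
Eif2ak3 upstream: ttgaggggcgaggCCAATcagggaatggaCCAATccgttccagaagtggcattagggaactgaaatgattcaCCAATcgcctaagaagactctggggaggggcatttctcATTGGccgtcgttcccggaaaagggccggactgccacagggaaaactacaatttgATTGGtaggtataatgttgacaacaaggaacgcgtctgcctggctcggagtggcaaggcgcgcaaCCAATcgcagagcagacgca
None of the 6 was followed at the ERSE spacing by CCACG.

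Eif2ak4, the GCN2 gene, differed from Eif2ak3. It is longer, at 86617 bp (chr2:118388618-118475234, plus strand), and 5 of its 8 transcripts start in an unchanged region of 688 bp (chr2:118388557-118389244). Of unchanged regions with a TSS, 13.1% were narrower. No other region lay in the gene, and listed regions covered 0.724% of its span. The nearest UP region was 165.2 kb and the nearest DOWN region 80.0 kb from the TSS, so no changed region lay within 50 kb of any Eif2ak4 TSS. The 100 bases before its start (RefSeq, GRCm38.p6, chr2:118388517-118388616, plus strand), which overlap the unchanged region, held no CCAAT and are given for comparison with those of Eif2ak3:
Eif2ak4 upstream: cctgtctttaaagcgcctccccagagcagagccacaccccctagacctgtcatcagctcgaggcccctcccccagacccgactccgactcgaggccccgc
Hence the ERS-specific kinase and the amino acid sensor, which share a substrate, differed in class, in width and in surroundings.

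Around the eIF2alpha kinases, 12 partner genes were looked up. At their TSSs 6 were UP, 0 DOWN and 7 unchanged, with Impact counted under both classes. The shares over all genes with a TSS in any region were 21.4% UP and 8.91% DOWN. The UP genes all act after or against the kinases. Ppp1r15b and Ppp1r15a, the phosphatase subunits that reverse eIF2alpha phosphorylation, had UP regions of 6626 bp and 5476 bp. Dnajc3, an inhibitor of PERK, had 6492 bp, Ddit3, which encodes CHOP, 6277 bp, and Trib3, a CHOP target, 1846 bp. Impact, an inhibitor of GCN2, had an UP region of 3154 bp and an unchanged one of 730 bp. The other kinases of the family, Eif2ak1 and Eif2ak2, were unchanged, as were the substrate gene Eif2s1, the GCN2 activator Gcn1l1, the adaptor gene Nck1 and Atf4, the last with a region of 6052 bp.

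Atf6 is the longest of the 10 genes, with 163098 bp on the minus strand (chr1:170704674-170867771). Its coding transcript starts in an UP region of 2811 bp (chr1:170866396-170869206), which also holds the TSS of Gm9929, and 64.2% of UP regions with a TSS were narrower. Its other transcript, without a coding sequence, starts in no region, far inside the gene, and extends the window of 50 kb into the body. The body held 9 regions, of which 0 were UP, 2 DOWN and 7 unchanged. The DOWN regions were 852 bp wide in intron 8 and 2087 bp wide in intron 14. They lay 51.2 kb and 99.4 kb from the coding TSS. Upstream, an UP region of 3529 bp with the TSSs of Dusp12 and Gm26620 lay 14.5 kb away, wider than that of Atf6 itself. Acetylation classed as UP was thus limited to the 5′ end and the upstream neighbour, and no region of the body was UP.

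Atf6b, a weaker relative of Atf6, spans 7929 bp (chr17:34647146-34655074, plus strand) and had the narrowest TSS region of the 10 genes. The UP region of 648 bp (chr17:34647154-34647801) began 8 bp after the most 5′ coding TSS, and 3 of the 5 transcripts, 1 of them coding, start inside it. Only 4.25% of UP regions with a TSS were narrower. Its other 4 regions within 50 kb were upstream and unchanged, and at 1.7 kb one of 624 bp held the TSS of the neighbour Fkbpl. The UP call at Atf6b therefore rested on a narrow region at the edge of the promoter. The 100 bases before its start (RefSeq, GRCm38.p6, chr17:34647046-34647145, plus strand) lie in no region and held CCAAT once, on the minus strand:
Atf6b upstream: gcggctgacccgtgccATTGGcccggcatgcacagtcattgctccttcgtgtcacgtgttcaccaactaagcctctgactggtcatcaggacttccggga

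In the CREB3 family the classes diverged. Creb3, also called LUMAN, spans 4729 bp (chr4:43562332-43567060, plus strand), and 5 of its 6 transcripts start in a DOWN region of 7467 bp (chr4:43557589-43565055). Of DOWN regions with a TSS, 81.1% were narrower. The region reached 4743 bp upstream, and the TSS of Tln1, the gene of the adhesion protein talin, lies in it too, so the change at Creb3 and at Tln1 cannot be told apart. No UP region lay within 50 kb, and the nearest was 402.4 kb away. The single match to TGACGTGG, the UPR element (UPRE) that XBP1 and ATF6 are known to bind, in all 66 regions at, in or within 50 kb of the 10 genes lay in this DOWN region, 1361 bp after the TSS and in no exon of a coding transcript. It is shown in capitals, with 20 bases on each side (chr4:43563673-43563720, minus strand, mm10), because it fell on the DOWN side:
Creb3 UPRE: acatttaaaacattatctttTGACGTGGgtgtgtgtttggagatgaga
Genome-wide, a match to it was found in 4.39% of UP regions, in 2.99% of DOWN regions and in 1.95% of unchanged ones. DOWN regions are wider than unchanged ones, and per 100 kb the values were 1.96, 1.01 and 1.26 matches, lowest in DOWN regions.

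Creb3l2, or BBF2H7, known for its part in the secretory pathway of cartilage and liver stellate cells, spans 114892 bp on the minus strand (chr6:37327255-37442146). Its coding transcript starts in an UP region of 3115 bp (chr6:37440106-37443220), and 68.8% of UP regions with a TSS were narrower. Intron 1 held 2 DOWN regions of 8899 bp and 4264 bp, at 39.0 kb and 50.2 kb from the TSS, the wider of which was the widest DOWN region at, in or near any of the 10 genes. Of the span, 11.5% was in DOWN and 1.78% in UP regions. The 13163 bp of DOWN region in the gene were reached or passed by 0.807% of the 12261 genes, a rank not adjusted for gene length. Creb3l2 was thus UP at its promoter and, by length, mainly DOWN within intron 1. The DOWN region at 50.2 kb lay just outside the window of 50 kb, while the UP region of Ern1 at 46.0 kb lay just inside it. CCAAT was found 2 times in its RefSeq window, once in the last 100 bases before the start (GRCm38.p6, chr6:37442149-37442248, minus strand), in capitals as its reverse complement:
Creb3l2 upstream: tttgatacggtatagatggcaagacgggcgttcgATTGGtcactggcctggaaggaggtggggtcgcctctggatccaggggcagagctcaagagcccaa

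Creb3l3, the liver-enriched member, spans 14551 bp on the minus strand (chr10:81084324-81098874), and its coding TSS lay in no listed region. A DOWN region of 3903 bp (chr10:81090927-81094829) began 4045 bp inside the gene and covered exons 2 to 5, which is 26.8% of the span. It held the TSSs of 2 of the 4 transcripts, both without a coding sequence, and on these the DOWN class of the gene rests. RefSeq also places a start in it, at position 81092591. Of DOWN regions with a TSS, 50.8% were narrower. Around the coding TSS, the nearest region was unchanged, 769 bp wide and 3.3 kb upstream, and at 6.2 kb another of 1705 bp held the TSS of Map2k2. The 1 UP region within 50 kb was 1708 bp wide and 46.7 kb upstream. For the gene of CREBH, the DOWN call was therefore placed inside the gene, and the class of its main promoter is not known from these lists.

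Creb3l1, also called OASIS and known from bone and astrocytes, spans 42175 bp on the minus strand (chr2:91982328-92024502). Its 1 transcript starts in no region. An unchanged region of 1163 bp lay in intron 1, 15.3 kb from the TSS, and an UP region of 560 bp lay 31.1 kb upstream. It was the 1 gene of the 10 with no TSS in any region.

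**Figure D2:**
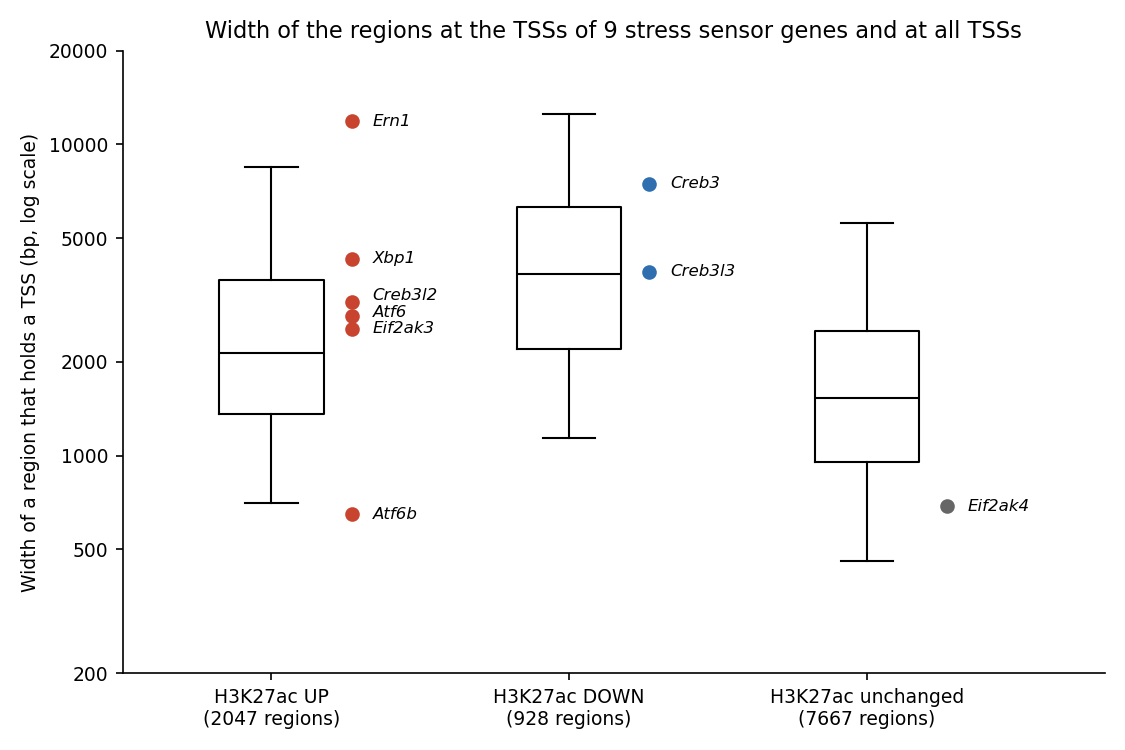
Width in bp (log scale) of the TSS regions of 9 of the 10 genes (points) beside all regions of the same class that hold a TSS. Boxes give the quartiles and the median, and whiskers the 5th and 95th percentiles. The region of Ern1, at 11863 bp, lies above the upper whisker of UP regions and that of Atf6b, at 648 bp, below the lower one.

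Among the 6 UP regions at the TSSs, the width ran from 648 bp at Atf6b through 2554 bp at Eif2ak3, 2811 bp at Atf6, 3115 bp at Creb3l2 and 4288 bp at Xbp1 to 11863 bp at Ern1. The median over all UP regions with a TSS was 2136 bp, so 5 of the 6 were wider than that. The plot of TSS region widths shows 2 extremes, Ern1 and Atf6b, and 4 genes close to each other. At the DOWN side, the median over regions with a TSS was 3828.5 bp. The region of Creb3 was wider, and that of Creb3l3 was close to it.

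For the ATF6 and CREB3 branch, 10 partner genes were looked up. Of these, 4 were UP at a TSS, 0 DOWN and 6 unchanged, with Nfyc under both, and Creb3l4 had no region there. The shares over all genes with a TSS in any region were 21.4% UP and 8.91% DOWN. Hspa5, the chaperone BiP that holds the sensors inactive and a target of ATF6, had an UP region of 6701 bp. Pdia5, a disulfide isomerase that helps to activate ATF6, had 4089 bp, and Wfs1, which restrains ATF6, 1387 bp. The genes of the proteases S1P and S2P, Mbtps1 and Mbtps2, were in unchanged regions of 1883 bp and 1995 bp. For NF-Y, Nfyc had an UP region of 7622 bp, while Nfya and Nfyb were unchanged, as was Yy1.

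The known liver targets of CREB3L3 fell in all classes. Of 8 genes, 3 were UP at a TSS, 2 DOWN and 2 unchanged, and Hamp2 had no region there. Fgf21, the fasting hormone of liver, Apcs, an acute-phase protein, and Cidec, a lipid droplet protein, had UP regions of 2187 bp, 3118 bp and 8736 bp. Apoc2, a cofactor of lipoprotein lipase, and Crp, an acute-phase protein, had DOWN regions of 6878 bp and 4944 bp. Hamp, which encodes hepcidin, and Apoa4 were unchanged. Over the 4 lists, 19 of the 36 genes with a TSS in any region had one in an UP region and 2 in a DOWN region, to be read beside the 21.4% and 8.91% of all genes. The lists were chosen by known role, with earlier results of these data known, so the count is no independent evidence of a direction. Both DOWN genes are in the list of CREB3L3 targets, which holds genes of lipid metabolism and the acute phase.

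**Figure D3:**
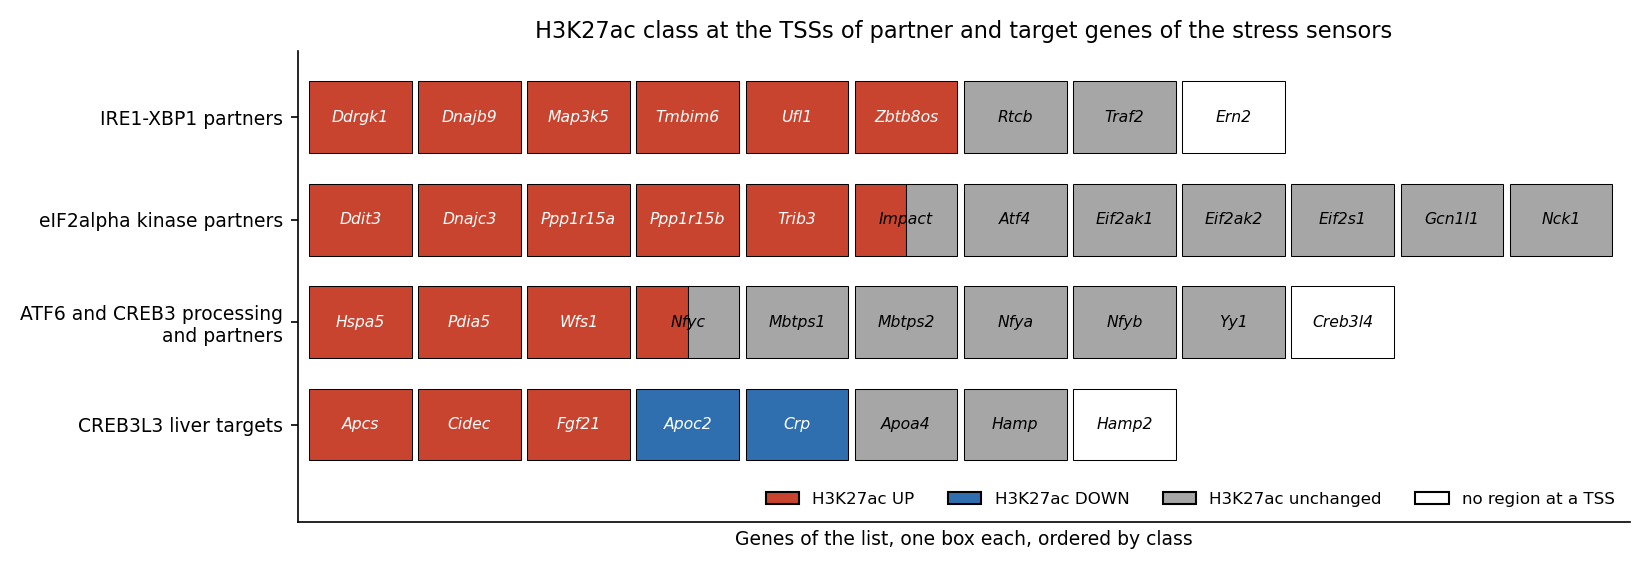
H3K27ac class at the TSSs of the 39 partner and target genes of the stress sensors, one box per gene and one row per list. A box in 2 colours is a gene with TSSs in regions of both classes, and white boxes have no region at a TSS. UP genes make up 6 of 9, 6 of 12, 4 of 10 and 3 of 8 genes from the top row to the bottom row, and both DOWN genes are CREB3L3 targets.

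The surroundings of the 10 genes held both directions. Within 50 kb of their TSSs lay 15 UP, 8 DOWN and 38 unchanged regions, or 24.6%, 13.1% and 62.3%, where UP regions are 17.1% and DOWN regions 10.5% of all 32196. An UP region within 50 kb was found for 8 of the 10 genes, all but Eif2ak4 and Creb3, beside 53% of the 12261 genes. A DOWN region was found for 7 of the 10, beside 31.9%. For Atf6 this rests on its transcript without a coding sequence, since the nearest DOWN region lay 51.2 kb from the coding TSS. Ern1, Xbp1, Eif2ak3, Atf6, Creb3l2 and Creb3l3 had both kinds, beside 16.3% of the 12261 genes. Since the TSS regions themselves count here, 6 of the 15 UP regions and 2 of the 8 DOWN regions are those already described. The shares and gene counts above therefore repeat part of the result at the TSSs. They do not show an excess of UP or DOWN regions outside the TSS regions. The median width was 2811 bp for these UP regions, 4828.5 bp for the DOWN regions and 1038.5 bp for the unchanged ones, compared with 1621.5 bp, 2229 bp and 1155 bp over all regions. Both UP and DOWN regions near these genes thus had a median above that of their class, although the 2 DOWN regions of Atf6, at 852 bp and 2087 bp, were narrower than the DOWN median.

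**Figure D4:**
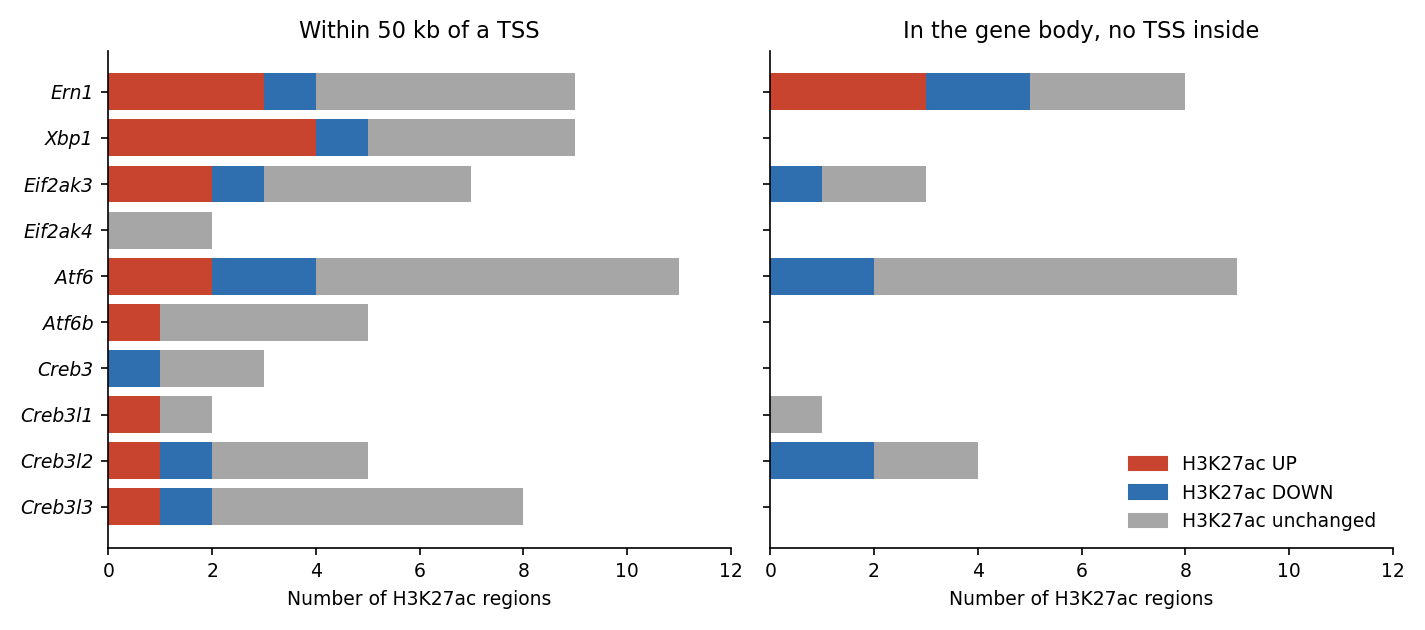
Number of H3K27ac regions by class for each gene, within 50 kb of a TSS (left) and in the gene body without the regions that hold one of its TSSs (right). Xbp1 has the most UP regions within 50 kb, 4, and in gene bodies UP regions are found in Ern1 only, 3, while DOWN regions are found in Ern1, Eif2ak3, Atf6 and Creb3l2.

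In the gene bodies the balance differed from that at the TSSs. Leaving out the regions at their own TSSs, the bodies held 3 UP, 7 DOWN and 15 unchanged regions, or 12%, 28% and 60% of 25. Among the 13243 regions that lie in a protein-coding gene and hold no TSS, 15.9% were UP and 10.4% DOWN. The 3 UP regions were all in Ern1. The 7 DOWN regions were in Ern1 (2), Eif2ak3 (1), Atf6 (2) and Creb3l2 (2), and these are the 4 genes of at least 50 kb with a TSS in an UP region. Each long gene of the set with an UP promoter also had DOWN regions within it. Over all 2620 genes with a TSS in an UP region, 7.67% had a DOWN region in the body, and of the 613 with a span of at least 50 kb, 23.7% did. Of 2236 genes that long with a TSS in other regions only, 21.9% did, so over all long genes the share was similar with and without an UP promoter. Eif2ak4, as long but unchanged at its TSSs, had no region in its body.

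Motif matches in the 66 regions were few for several elements of the unfolded protein response, which are sparse over all regions too. The matches are given as descriptions. Letters were searched on both strands. Beside the ERSE of Xbp1 and the UPRE of Creb3, ERSE-II (ATTGG and CCACG separated by any 1 base) and the cAMP response element (TGACGTCA, which shares TGACGT with the UPRE) had 0 matches. Over all UP, DOWN and unchanged regions, the cAMP response element had 1.55, 0.946 and 1.81 matches per 100 kb. ERSE-II had 0.0934, 0.0276 and 0.0381. The ATF4 and CHOP composite TGATGNAA had 11 matches in 7 of the 16 UP regions, 4 in 3 of the 11 DOWN regions and 7 in 6 of the 39 unchanged regions. Per 100 kb this made 21.02, 7.93 and 12.4, beside 21.5, 14.7 and 14.8 over all regions. The density in UP regions near these genes was thus close to that of UP regions in general. The D-box TTANGTAA, bound by NFIL3 and the PAR-bZIP factors, had 1 match in UP, 4 in DOWN and 5 in unchanged regions. That is 1.91, 7.93 and 8.87 per 100 kb, compared with 10.90, 10.91 and 10.99 over all regions. The FOXA motif TGTTTAC had 8, 7 and 12 matches. Per 100 kb this made 15.3, 13.9 and 21.3, beside 16.9, 17.6 and 17.1 over all regions. For the HNF4 motif CAAAGTCCA there were 2, 0 and 1. Per 100 kb these were 3.82, 0 and 1.77, beside 2.05, 2.79 and 2.65 over all regions. In the 66 regions CCAAT had 77 matches in UP, 62 in DOWN and 75 in unchanged regions. Per 100 kb this made 147, 123 and 133, close to the 140, 134 and 134 over all regions. Of RefSeq promoter windows, 3.97% held the composite, 0.676% the UPRE, 1.79% the cAMP response element, 0.0365% ERSE-II, 2.32% the D-box, 3.65% the FOXA motif and 0.475% the HNF4 motif. CCAAT, which is part of the ERSE and ERSE-II, was found in the windows of Eif2ak3, Creb3l2, Atf6b and, at its inner start, Creb3l3, and in none of those of Ern1, Xbp1, Eif2ak4 and Creb3. RefSeq windows were matched for 8 of the 10 genes, Atf6 and Creb3l1 being without one.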

How the data were processed

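H3K27ac ChIP-seq of MPH was performed by the authors in 3 libraries per treatment, with 1 input library per treatment. According to the study, reads were mapped with Bowtie to mm10, broad peaks were called with MACS2 on pooled libraries, and bins were counted, filtered against input, normalized by loess regression, tested with csaw in a paired model and combined per peak. The deposited lists give only region starts and ends in bp. Depth is therefore unknown, and the filter, normalization and pairing could not be checked.

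Regions were overlapped with 141767 transcripts of GENCODE M21 (the study used an earlier release). A region was at a TSS where any transcript of the gene starts in it, in the body where it overlaps the span without holding a TSS of the gene, and near where it overlaps the 50 kb on either side of a TSS. Distances run from the most 5′ coding TSS, and exons are numbered on the transcript with the longest coding sequence. All 10 genes, every region at their TSSs, and from the lists all UP and DOWN genes are named. Members and lists were chosen with earlier results of these data known. Of the list genes, 1 was matched through an older symbol (Gcn1l1). Sequences come from RefSeq (GRCm38.p6) and mm10. Overlap and motif counting were tested on simulated data. No statistical test was made. Python 3.11.15 and matplotlib 3.10.9 were used.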

Additional observations from a re-analysis of the deposited data

How the results depend on the processing

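No paired analysis was possible because the lists give positions without values per library, and no library could be left out in turn either. Of 54 counts recomputed under alternatives, 34 stayed within 1.5 times the reported count and 20 did not. The number of genes with a TSS in an UP region was 5 or 6 throughout, while the share over all genes ranged from 20.8% to 24.3%. Genes with a TSS in a DOWN region numbered 1, not 2, with coding transcripts, basic transcripts or the 5′ end of the gene alone, since Creb3l3 then had none. Genes with no TSS in a region numbered 2 with coding or basic transcripts. They numbered 3 with the 5′ end alone, where a region had to span the 500 bp before and after a TSS, or with regions of at least 1 kb, and in the last 2 settings 0 genes were unchanged. Where TSSs up to 1 kb from a region counted, 2 were unchanged. A window of 10 kb held 8 UP, 3 DOWN and 10 unchanged regions, one of 25 kb held 25 unchanged regions, and one of 100 kb held 14 DOWN and 68 unchanged regions. Regions of at least 1 kb left 20 unchanged regions within 50 kb and 8 in the bodies. Bodies counted with their TSS regions held 9 UP regions. Of long genes with an UP TSS, 15.8% had a DOWN region in the body from a span of 25 kb and 35.3% from 100 kb, spans added after seeing the data. Classes rest on the authors' thresholds, and without depth a narrow region cannot be told from a weakly covered one.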
